A study of Mus musculus with 2 samples.

Results

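Cluster 22 comprised 317 of the 23528 cells in the study, the cells to which the authors' clustering of all cells gave that number. Of these, 139 came from the Memo1-mutant library of 13820 cells and 178 from the Control library of 9708 cells. The Memo1-mutant library came from 1 Memo1;K14CRE mouse and the Control library from 1 control mouse, both at postnatal day 20, and each was made from the cervical loop region of the lower incisors with the 10x Genomics 3′ platform after dissociation with trypsin and dispase. The region was taken with both its epithelium and its mesenchyme, and the authors' file put every cluster 22 cell outside the ameloblast lineage. K14 is the keratin promoter that drives the Cre recombinase, and it is active in epithelium, so the deletion is aimed at cells other than these. The alleles of the control mouse are not given in the labels. With a single mouse and library for each genotype, variation between mice could not be estimated, and no test was made. Levels are given as CPM, the summed UMI counts of a gene scaled to the total of the same cells. UMIs are counted molecules. Ratios of CPM are Memo1-mutant over Control with exact 95% intervals of 2 Poisson counts, and shares of cells carry exact binomial intervals, which cover counting error only.

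Odontoblasts are the cells of the dental mesenchyme that line the pulp and secrete dentin, a collagen matrix that mineralizes with the help of acidic phosphoproteins. The SIBLING family of such proteins (dentin sialophosphoprotein Dspp, dentin matrix protein Dmp1, bone sialoprotein Ibsp, Mepe and osteopontin Spp1) is shared between tooth and bone. Osteocalcin, made from Bglap and Bglap2, is a vitamin K-dependent protein of both matrices. In the mouse incisor, which grows throughout life, odontoblasts arise continuously from mesenchyme at the apical end.

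Cluster 22 was deeply sampled. Its cells held 2343501 UMIs in the Memo1-mutant and 3608450 UMIs in the Control library, with medians of 16202 and 20521.5 UMIs per cell, against 5684 UMIs per cell outside the cluster. Mitochondrial transcripts took a median of 6.54% of UMIs in Memo1-mutant cells and 6.58% in Control cells. No barcode was shared between the libraries within the cluster, although 139 barcodes were shared across the study. The cluster made up 1.01% (interval 0.846 to 1.19) of the Memo1-mutant cells and 1.83% (1.58 to 2.12) of the Control cells. These shares were not compared, because the leading gene of the cluster, Bglap, itself differed between the libraries. The libraries also differed in sex-linked transcripts: within cluster 22, Xist had 3582 counts in the Memo1-mutant and 0 in the Control library, and Ddx3y had 0 in the Memo1-mutant and 171 in the Control library. Genotype, library and sex-linked transcripts cannot be told apart.

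Memo1 itself did not separate the libraries in this cluster. It had 25.2 CPM in Memo1-mutant and 25.8 CPM in Control cells, a ratio of 0.977 (0.693 to 1.37), and outside the cluster the ratio was 0.939. Counts of 3′ tags do not show whether an exon is missing.

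The promoters of 4 genes are printed because the results turn on the cells that carry them: Ifitm5 and Dmp1 were found mostly or always in cells with Bglap, and Ibsp was among the matrix genes past 2-fold between the libraries. Each is a RefSeq window of 300 bases on GRCm38.p6 that contains the annotated gene start, written 5′ to 3′ on the gene's strand. Bglap lies at chr3:88384417-88384716 on the minus strand, Ifitm5 at chr7:140950194-140950493 on the minus strand, Dmp1 at chr5:104202367-104202666 on the plus strand and Ibsp at chr5:104299037-104299336 on the plus strand. Capitals mark matches, on either strand, to the RUNX core TGTGGT, the homeodomain core TAATTG or the TATA box TATAAA.
Bglap: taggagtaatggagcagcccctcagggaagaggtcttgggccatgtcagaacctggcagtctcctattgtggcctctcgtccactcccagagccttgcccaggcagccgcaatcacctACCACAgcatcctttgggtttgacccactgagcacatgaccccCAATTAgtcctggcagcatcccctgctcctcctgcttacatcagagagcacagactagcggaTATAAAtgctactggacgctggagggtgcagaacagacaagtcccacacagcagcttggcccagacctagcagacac
Ifitm5: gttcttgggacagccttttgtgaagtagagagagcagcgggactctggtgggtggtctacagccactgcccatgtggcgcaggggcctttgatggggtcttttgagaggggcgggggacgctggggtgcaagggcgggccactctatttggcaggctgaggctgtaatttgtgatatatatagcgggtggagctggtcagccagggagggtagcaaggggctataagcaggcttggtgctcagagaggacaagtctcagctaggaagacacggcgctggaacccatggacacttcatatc
Dmp1: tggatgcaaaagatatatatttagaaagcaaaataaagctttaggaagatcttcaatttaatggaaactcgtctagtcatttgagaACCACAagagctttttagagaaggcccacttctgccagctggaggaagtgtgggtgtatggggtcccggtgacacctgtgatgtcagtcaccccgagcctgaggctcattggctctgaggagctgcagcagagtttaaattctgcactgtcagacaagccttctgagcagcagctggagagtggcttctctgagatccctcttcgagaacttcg
Ibsp: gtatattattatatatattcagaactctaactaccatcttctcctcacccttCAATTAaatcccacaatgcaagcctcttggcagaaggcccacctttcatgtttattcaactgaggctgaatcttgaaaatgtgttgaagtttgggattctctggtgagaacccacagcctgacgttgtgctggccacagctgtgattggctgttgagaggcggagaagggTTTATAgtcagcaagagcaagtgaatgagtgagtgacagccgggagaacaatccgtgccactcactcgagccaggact

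The Bglap window held a RUNX core at bases 119 to 124 and a homeodomain core at bases 162 to 167, both on the opposite strand, and a TATA box at bases 224 to 229 on the printed strand. The Dmp1 window held a RUNX core at bases 87 to 92, and the Ibsp window a homeodomain core at bases 53 to 58 and a TATA box at bases 223 to 228, all on the opposite strand. Bases are counted from 1 at the 5′ end of each window. The Ifitm5 window held none of these letters. Of 32817 RefSeq promoter windows, 16.8% held the RUNX core, 2626 windows the homeodomain core and 13.6% the TATA box. The motifs do not overlap each other in these windows, and a match describes letters and not binding.

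Most cells of the cluster did not carry the odontoblast marker Dspp. Dspp was seen in 5 of 139 Memo1-mutant cells and 9 of 178 Control cells, and Dmp1 in 10 Memo1-mutant and 8 Control cells. Bglap was seen in 33 Memo1-mutant cells (23.7%, 16.9 to 31.7) and 55 Control cells (30.9%, 24.2 to 38.2). In endothelial cells, which should lack the gene, Bglap was seen in 4.38% of Memo1-mutant and 4.38% of Control cells, at medians of 7159.5 and 4914.5 UMIs. No UMI of Bglap, Dspp, Dmp1 or Ibsp was found in 103 of the Memo1-mutant and 121 of the Control cells. Col1a1, the main chain of type I collagen, was present in all 317 cells. The label odontoblast-like was thus met for Dspp and Dmp1 in few cells only, and the population is called here by its number.

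Some other genes with high levels in the cluster were found in nearly every cell. Smpd3, a neutral sphingomyelinase needed for mineralization of bone and dentin, was found in 127 Memo1-mutant and 175 Control cells. Its pooled level was 1364 CPM, against 19.6 CPM in all other cells. Ptn, the heparin-binding growth factor pleiotrophin, was found in 138 Memo1-mutant and 177 Control cells, and Lum, the proteoglycan lumican, in 137 and 176. Neither was restricted to the cluster: Ptn was 7408 CPM here, 3529 CPM in cluster 11 and 3003 CPM in cluster 5, and Lum was 3139 CPM here, 2331 CPM in cluster 3 and 2079 CPM in cluster 17. Bglap stood farthest above the rest of the study, at 2811 CPM against 12.6 CPM. Because the clusters were built from these genes, such contrasts describe the cluster and test nothing.

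The 15 leading genes combined matrix, Wnt and patterning genes. Besides Bglap, Smpd3 and Ptn they were Bglap2, the Wnt antagonists Dkk1 and Notum, the sphingomyelin synthase Sgms2, Plac8, Ifitm5 (a membrane protein of bone-forming cells), Sct, Dmp1, Fgf3, Gsc, Dspp and Ibsp. Dkk1 reached 353 CPM, against 3.55 CPM elsewhere. Notum, which removes a lipid from Wnt proteins, reached 249 CPM, against 6.40 CPM elsewhere. Fgf3, a growth factor of incisor mesenchyme, reached 127 CPM, against 3.76 CPM elsewhere. Cluster 22 cells supplied 87.2% of all Bglap counts of the study. Among markers, 9 of 10 odontoblast genes and 9 of 12 osteoblast genes were at least 1.5-fold above the other cells. The osteoblast genes Alpl and Runx2 were below the other cells, at 177 and 52.4 CPM in the cluster against 278 and 90.4 CPM elsewhere. Of 6 osteocyte genes, 5 were at least 1.5-fold above the other cells, Dmp1 and Phex among them, and Mepe had 0 counts. By the same measure, 4 of 8 dental pulp and apical mesenchyme, 2 of 6 fibroblast and 0 of 7 ameloblast genes were above. The share of all genes at that level is not given here, so these marker counts only describe the cluster.

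**Figure D1:**
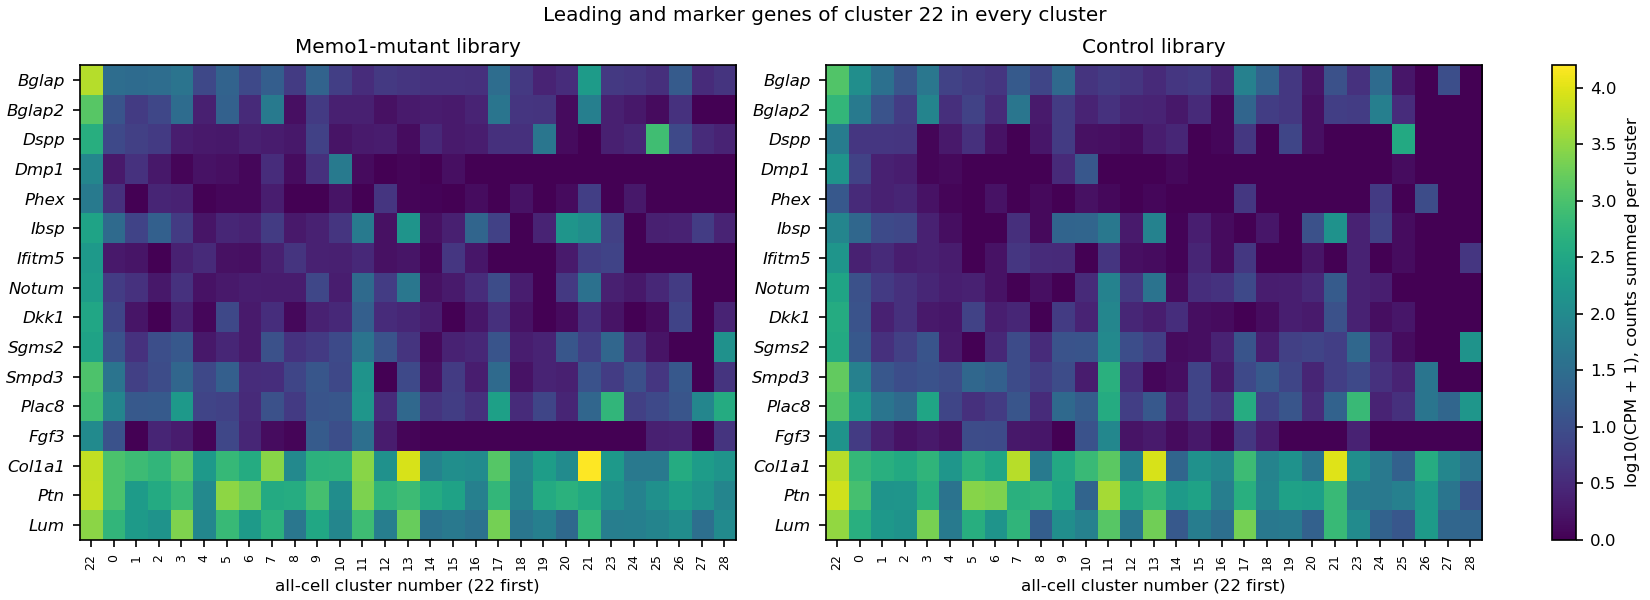
Levels of 16 genes in each of the 29 all-cell clusters, as log10(CPM + 1) of counts summed over the cells of a cluster, with the Memo1-mutant library at left and the Control library at right. Bglap was highest in cluster 22 in both libraries (5406 and 1125 CPM), while Dspp was highest in cluster 25, an ameloblast-lineage cluster (819.6 CPM in Memo1-mutant and 358 CPM in Control cells), and Col1a1 in cluster 21.

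Dspp is also an early gene of the enamel epithelium. In this study its level in cluster 25, all of whose 189 cells the authors placed in the ameloblast lineage, was 611 CPM over both libraries, against 202 CPM in cluster 22. Dmp1 was highest in cluster 22, at 123 CPM, and next in cluster 10, at 39.1 CPM.

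Within the cluster, cells ranged from Bglap-bearing cells rich in collagen to cells without Bglap that held more Ptn, Vcan and Crabp1. Across the 317 cells, the genes whose log levels followed Bglap most closely were Bglap2 (Pearson r 0.95), Sparc (0.78), Kazald1 (0.77), Ifitm5 (0.76), Col1a1 (0.76) and Cdkn1a (0.75). The most opposed genes were Hmgn3 (r -0.50), Hmgn2, Dek, the retinoid-binding Crabp1 and the proteoglycan Vcan. The genes closest to Notum were Sgms2 (r 0.77), Map1b, Tubb3, Lrrc15, Col1a1 and Dkk1, and the most opposed were Vcan, Hmgn3, Twist2, Dlx6os1 and Omd. These cells share 2 libraries and their depth, so the correlations only describe the cluster.

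Cells with and without Bglap were also summed apart in each library. Col1a1 and Ifitm5 had been named above for following Bglap across these same cells. Their direction here was fixed by that choice, so their values describe the cells and test nothing. In Memo1-mutant cells, Col1a1 was 16877 CPM with Bglap and 1466 CPM without, and in Control cells it was 14255 CPM with Bglap and 1614 CPM without. Ifitm5 was 547 CPM with Bglap and 15.1 CPM without in Memo1-mutant cells, and 468 CPM with and 4.51 CPM without in Control cells. Smpd3 was less restricted, at 1909 CPM with and 692 CPM without Bglap in Memo1-mutant cells and 2371 CPM with and 1153 CPM without in Control cells. Ptn ran the other way in both, at 4281 CPM with and 8041 CPM without Bglap in Memo1-mutant cells, and 6190 CPM with and 8543 CPM without in Control cells. Cells with Bglap were also deeper, with medians of 22012 against 15429 UMIs in Memo1-mutant and 22726 against 19995 UMIs in Control cells.

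**Figure D2:**
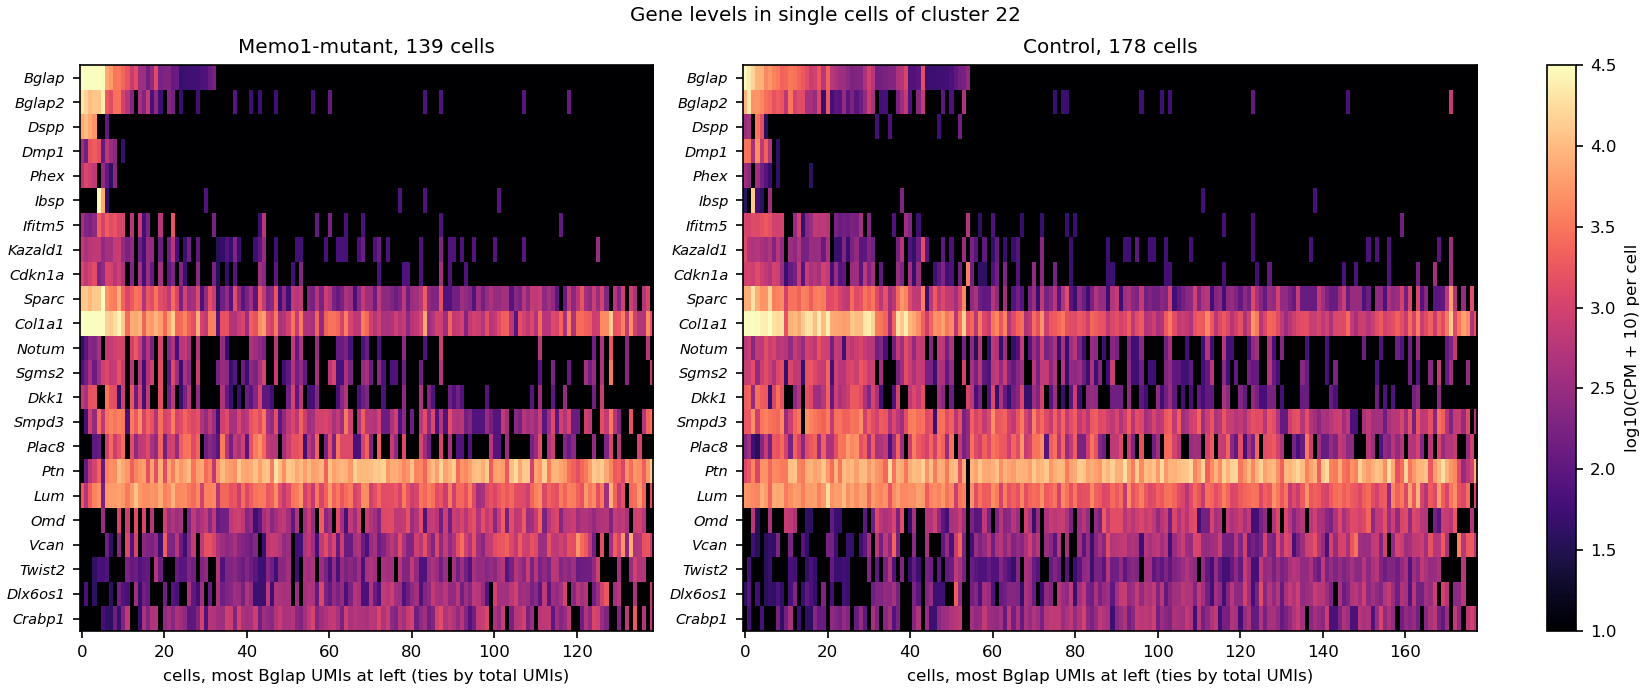
Log10(CPM + 10) of 23 genes in each cluster 22 cell, with 139 Memo1-mutant cells at left and 178 Control cells at right, ordered by their Bglap UMIs. At the left of each panel lie the 15 Memo1-mutant and 23 Control cells with 10 or more Bglap UMIs, which are bright for Bglap2, Sparc and Col1a1 and dim for Vcan and Crabp1.

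All 14 cells with Dspp and all 18 cells with Dmp1 also carried Bglap, and 50 of the 67 cells with Ifitm5 did. At 10 or more UMIs, Dspp was found in 8 cells and Ibsp in 3, too few for their overlap of 0 cells to be read. Dspp and Dmp1 at that level shared 7 cells, out of 8 with Dspp and 12 with Dmp1.

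Between the genotypes, 99 of 7803 genes (1.27%) lay past 2-fold, which is the call used here, with 67 higher (0.859%) and 32 lower (0.41%) in Memo1-mutant cells. These 7803 genes had at least 20 counts over both libraries and a mean of at least 10 CPM, and their median log2 ratio was 0.02. The shares over all tested genes are the background for the counts of list members past 2-fold given below. The higher genes included Xist and Tsix, the haemoglobin genes Hbb-bs, Hba-a1, Hba-a2 and Hbb-bt, with ratios of 19.9, 16.1, 15.5 and 9.10, and the matrix genes Dspp, Bglap and Ibsp, and the lower genes included Y-linked ones. Smpd3, Notum and Dkk1, which were carried by more cells, were lower by less than 2-fold. For each gene, the counts of the 1 cell with the most were also taken out of each library, while the totals kept that cell. By this measure, 50 of the 67 higher and 31 of the 32 lower genes were still past 2-fold. Ratios without the richest or top cell of each library were all made this way.

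**Figure D3:**
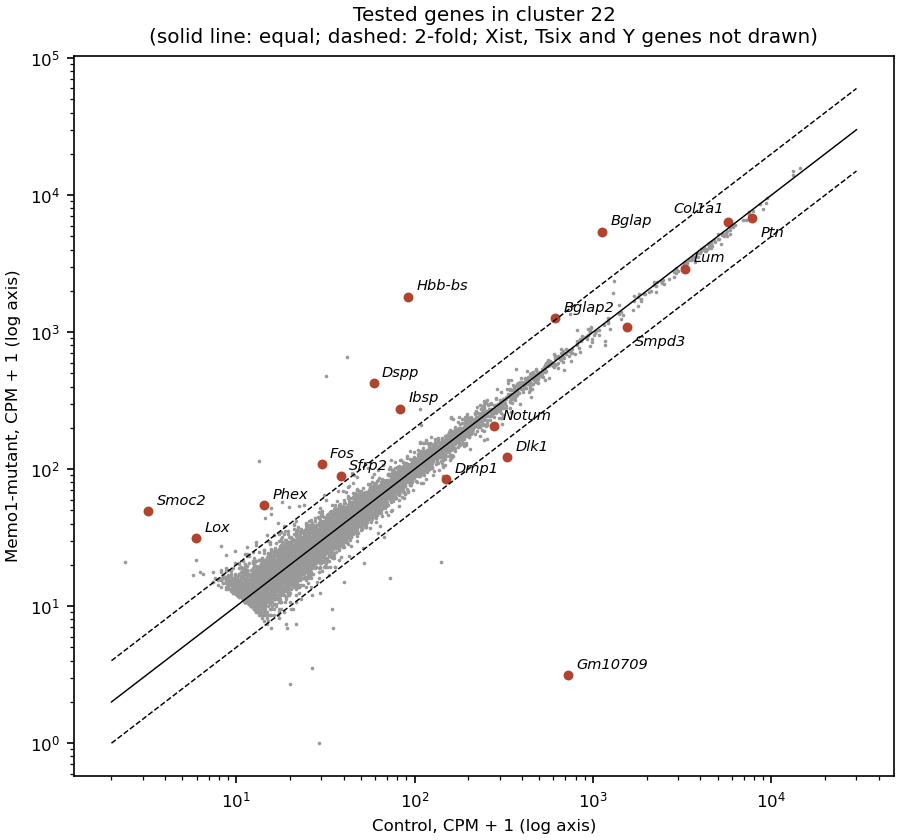
CPM + 1 of the tested genes in cluster 22, Memo1-mutant on the vertical and Control on the horizontal axis, both logarithmic, with lines for equal levels and for 2-fold. Red points are named genes: Bglap, Dspp, Ibsp and Phex lie above the 2-fold band, and Dlk1 and Gm10709 below it.

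Among the SIBLING genes, Dspp and Ibsp were past 2-fold higher, Dmp1 was lower by less than 2-fold, and Spp1 and Mepe were too low to be tested. Dspp measured 423 CPM in Memo1-mutant and 57.9 CPM in Control cells, a ratio of 7.31 (6.29 to 8.53). The Memo1-mutant counts came from 4 cells with 374, 228, 220 and 167 UMIs, which held 99.7% of them, while the 4 richest Control cells had 128, 49, 15 and 12 UMIs. Without the richest cell of each library the ratio was 11.7, and it was 85.6 when the deepest 5% of cells were left out. That last setting took out 7 Memo1-mutant and 9 Control cells. The 4 richest Control cells were deep, at 36030 to 40424 UMIs in total, and the 4 Memo1-mutant cells held 29667 to 36555. Both ratios therefore depend on which of these few cells stayed. Ibsp measured 275 CPM in Memo1-mutant and 81.8 CPM in Control cells, a ratio of 3.37 (2.93 to 3.88), and 2 Memo1-mutant cells (500 and 140 UMIs) and 1 Control cell (279 UMIs) held nearly all of it. Without the richest cell of each library the Ibsp ratio was 13.95 (8.31 to 25.1). The 1 rich Control cell was then gone, while the Memo1-mutant cell with 140 UMIs stayed. This ratio therefore had to rise, and it rests on that 1 cell. Dmp1 measured 83.6 CPM in Memo1-mutant and 149 CPM in Control cells, a ratio of 0.562 (0.475 to 0.663). Its ratio was 5.62 when the deepest 5% of cells were left out and 1.07 in cells thinned to 1000 UMIs. The 4 Control cells richest in Dmp1 held 91.4% of its Control counts, and each had 36466 to 40424 UMIs in total. The 5.62 therefore depends on which of these deep cells stayed. Spp1 measured 2.13 CPM in Memo1-mutant and 7.76 CPM in Control cells, and Mepe had 0 counts in both. The median log2 ratio over the 3 tested genes was 1.75, and -2.01 without the cells that carried 1000 or more Bglap UMIs, against 0.02 over all tested genes. Those cells held nearly all Memo1-mutant Dspp counts, so the Dspp ratio had to fall without them.

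The osteocalcin genes Bglap and Bglap2 were past 2-fold higher in Memo1-mutant cells. Bglap measured 5406 CPM in Memo1-mutant and 1125 CPM in Control cells, a ratio of 4.80 (4.64 to 4.98). Of the 33 Memo1-mutant cells with Bglap, 4, with 3724, 3122, 2265 and 1592 UMIs, held 84.5% of its counts, while the richest Control cells had 1105 and 821 UMIs. Without the richest cell of each library the ratio was 4.66 (4.47 to 4.86). Without the 4 Memo1-mutant cells and 1 Control cell that carried 1000 or more Bglap UMIs, Bglap measured 888 CPM in Memo1-mutant and 827 CPM in Control cells, a ratio of 1.07 (1.01 to 1.14). These cells were left out by their Bglap counts, and more of them were Memo1-mutant, so the Bglap ratio had to fall. Bglap2 measured 1269 CPM in Memo1-mutant and 611 CPM in Control cells, a ratio of 2.08 (1.97 to 2.20), which became 0.907 without those cells. Bglap3 had 8 counts in Memo1-mutant and 10 in Control cells. The genes are neighbours on chromosome 3 (GRCm38, Bglap at 88383501-88384464 and Bglap2 at 88377736-88378699, both on the minus strand), and their transcripts are nearly the same. Bglap and Bglap2 were identical at 99.1% of 436 aligned bases, and Bglap and Bglap3 at 96.6%, so the split of reads among them is uncertain. Of the 7 genes of vitamin K-dependent proteins and carboxylation, 4 were tested: Bglap and Bglap2 were past 2-fold higher, Vkorc1, the reductase that recycles vitamin K, had a ratio of 1.05 and Ggcx, the carboxylase, 0.657. Besides Bglap3, Gas6 and Mgp were too low to be tested, and had 10.2 and 9.39 CPM in Memo1-mutant and 8.59 and 3.33 CPM in Control cells.

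The 4 Memo1-mutant cells rich in Bglap were the same 4 that held the most Dspp, and their other genes are given beside those of the Control cells richest in Dspp. The cell with 374 Dspp UMIs had 3122 Bglap, 5 Dmp1, 2 Smpd3 and 7 Ifitm5 UMIs. The cell with 228 Dspp UMIs had 3724 Bglap, 11 Dmp1, 0 Smpd3 and 12 Ifitm5 UMIs. The cells with 220 and 167 Dspp UMIs had 26 and 9 Smpd3 UMIs. Ifitm5 stood at 5 to 12 UMIs in these 4 cells and at 35 to 56 UMIs in the 4 Control cells richest in Dspp. In the Control library, the cell with 128 Dspp UMIs had 341 Bglap, 190 Dmp1, 34 Smpd3 and 51 Ifitm5 UMIs. The Control cell with 49 Dspp UMIs had 308 Bglap, 23 Dmp1, 113 Smpd3 and 56 Ifitm5 UMIs. All 8 cells held between 29667 and 40424 UMIs in total and 5.29% to 7.83% mitochondrial counts. Without the cells with 1000 or more Bglap UMIs, Dspp had 3 counts in Memo1-mutant and 197 in Control cells, a ratio of 0.0246 (0.00503 to 0.0729). The cells left out held nearly all Memo1-mutant Dspp counts, while the Control cells with 128, 49 and 15 Dspp UMIs stayed. The Dspp ratio therefore had to fall, and its direction in cluster 22 rested on the 4 Memo1-mutant cells.

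**Figure D4:**
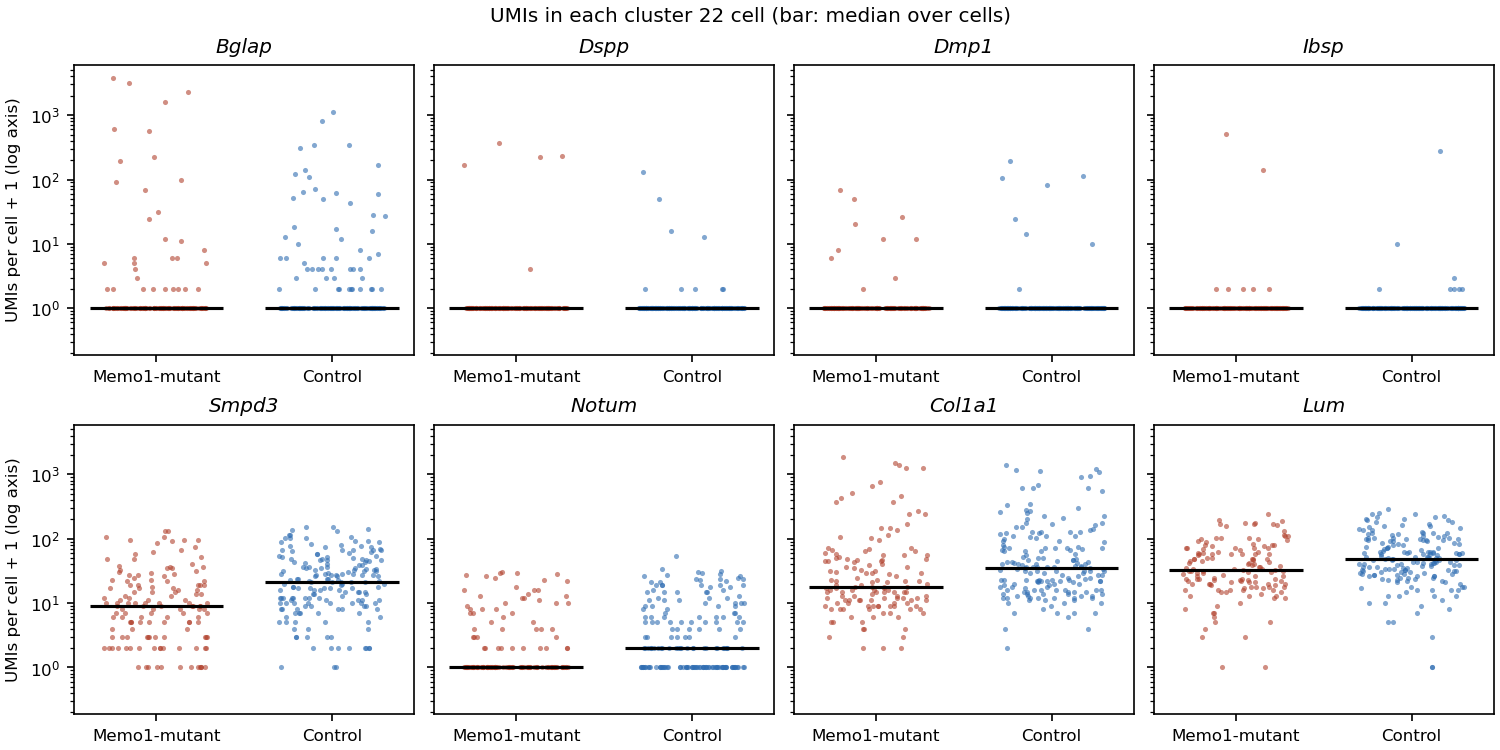
UMIs + 1 in each cluster 22 cell on a logarithmic axis for 8 genes, Memo1-mutant at left and Control at right in each panel, with bars at the median over cells. Bglap, Dspp, Dmp1 and Ibsp had medians of 0 UMIs and long tails, whereas the median of Smpd3 was 8 UMIs in Memo1-mutant and 20 UMIs in Control cells.

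Smpd3 was lower in Memo1-mutant cells across the whole cluster, at 1083 CPM in Memo1-mutant and 1547 CPM in Control cells, a ratio of 0.700 (0.668 to 0.734). The richest Memo1-mutant cell held 5.16% of its Memo1-mutant counts. The ratio was 0.805 (0.755 to 0.858) in cells with Bglap and 0.601 (0.560 to 0.644) in cells without. Without thinning, Smpd3 was found in 91.4% of Memo1-mutant and 98.3% of Control cells. In cells thinned to 1000 UMIs, which left out no cell of the cluster, Smpd3 was found in 38.1% (30.0 to 46.7) of Memo1-mutant and 69.1% (61.8 to 75.8) of Control cells. The endothelial background at that depth was 0.324% in Memo1-mutant and 0.845% in Control cells, after 275 and 184 shallower endothelial cells were left out. Over the 11 alternatives tried, the ratio ran between 0.614 and 0.732. Over all cells outside cluster 22 the Smpd3 ratio was 0.385 (0.360 to 0.411).

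The Wnt antagonists Notum and Dkk1 were lower in Memo1-mutant cells by less than 2-fold. Notum measured 205 CPM in Memo1-mutant and 278 CPM in Control cells, a ratio of 0.738 (0.660 to 0.823), and was found in 51 of 139 Memo1-mutant and 109 of 178 Control cells. After thinning to 1000 UMIs the shares were 15.1% (9.60 to 22.2) in Memo1-mutant and 21.9% (16.1 to 28.7) in Control cells, whose intervals overlap. Dkk1 measured 300.0 CPM in Memo1-mutant and 388 CPM in Control cells, a ratio of 0.774 (0.706 to 0.848). Over all cells outside the cluster the ratios were 0.665 for Notum and 0.357 for Dkk1. The ligands Wnt10a and Wnt6 had ratios of 0.915 (0.789 to 1.06) and 0.903 (0.756 to 1.08), and Wif1, which binds Wnt proteins, 1.05 (0.969 to 1.13). Of 16 tested genes of the Wnt list, 2 were past 2-fold, both higher, against 0.859% of all tested genes. Sfrp2, another Wnt-binding protein, measured 87.9 CPM in Memo1-mutant and 37.7 CPM in Control cells. Sost, the gene of sclerostin, had 42 counts in 4 Memo1-mutant cells and 28 counts in 3 Control cells. Outside the cluster the Sfrp2 ratio was 6.08. The Sost ratio became 0.418 without the cells rich in Bglap. The median log2 ratio of the list was -0.16.

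Of 9 tested genes of mineral deposition and phosphate handling, 2 were past 2-fold and higher, against 0.859% of all tested genes. The median log2 ratio of the list was -0.38, and both calls rested on few cells. Ibsp was 1 of them. Phex, an endopeptidase that cleaves SIBLING proteins, measured 53.3 CPM in Memo1-mutant and 13.3 CPM in Control cells, a ratio of 4.01 (2.85 to 5.72), and was found in 8 cells of each library. In each library 4 cells held most Phex counts, 87.2% in Memo1-mutant and 87.5% in Control cells. The Phex ratio was 0.738 (0.381 to 1.37) without the cells rich in Bglap. Alpl, the alkaline phosphatase that frees phosphate, measured 139 CPM in Memo1-mutant and 203 CPM in Control cells, a ratio of 0.685 (0.599 to 0.781). Ank, which exports pyrophosphate, measured 88.8 CPM in Memo1-mutant and 144 CPM in Control cells, a ratio of 0.616 (0.522 to 0.725). Fam20c, the kinase that phosphorylates SIBLING proteins, had a ratio of 1.03 (0.714 to 1.47).

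The 11 collagen genes were all tested, with 1 past 2-fold and higher, against 0.859% of all tested genes, and a median log2 ratio of 0.40. Col1a1 measured 6417 CPM in Memo1-mutant and 5708 CPM in Control cells, a ratio of 1.12 (1.10 to 1.15), which became 0.761 (0.743 to 0.780) without the cells rich in Bglap. Col1a2, the second chain of type I collagen, measured 1355 CPM in Memo1-mutant and 747 CPM in Control cells, a ratio of 1.81 (1.72 to 1.91). A single Memo1-mutant cell, 1 of the 2 rich in Ibsp, held 922 of 3175 Memo1-mutant Col1a2 counts, and without the top cell of each library the ratio was 1.42. Col12a1, a collagen that binds fibril surfaces, measured 53.8 CPM in Memo1-mutant and 23.0 CPM in Control cells, a ratio of 2.34 (1.76 to 3.12). It was found in 67 Memo1-mutant and 51 Control cells, and the ratio was 0.768 in cells thinned to 1000 UMIs. Among 18 genes of collagen processing, the cross-linking oxidase Lox was past 2-fold higher, with 71 Memo1-mutant and 18 Control counts, and its relative Loxl2 past 2-fold lower, with 46 Memo1-mutant and 184 Control counts. Lox was found in 11 Memo1-mutant and 4 Control cells, and its ratio of 6.07 became 2.42 (1.29 to 4.67) without the cells rich in Bglap. The Loxl2 ratio ran between 0.374 and 0.960 over the alternatives, and it was 1.51 (1.30 to 1.74) in cluster 11. The collagen chaperone Serpinh1 had a ratio of 0.871, and the list median was 0.00 on the log2 scale.

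Of the 11 tested genes of the FGF list 0 were past 2-fold, which at 1.27% over all tested genes says nothing particular about the list, and this holds for the other lists below without a call. The median log2 ratio of the FGF list was -0.37. Fgf3 measured 102 CPM in Memo1-mutant and 144 CPM in Control cells, a ratio of 0.709 (0.606 to 0.828). Over all cells outside the cluster the Fgf3 ratio was 0.397. Fgf10 had a ratio of 0.775 (0.584 to 1.02), and Spry1, a feedback inhibitor of FGF signalling, 0.654. Bmp4 measured 174 CPM in Memo1-mutant and 232 CPM in Control cells, a ratio of 0.751, among 17 tested BMP and TGF-beta genes of which 0 were past 2-fold. The hedgehog target Ptch1 measured 338 CPM in Memo1-mutant and 325 CPM in Control cells, a ratio of 1.04 (0.949 to 1.14).

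Of 17 tested transcription factors of odontoblasts and osteoblasts 0 lay past 2-fold, with a median log2 ratio of -0.06. Msx2, Dlx5 and Dlx3, homeobox factors of dental mesenchyme, had ratios of 0.913, 0.921 and 1.03. Sp7, the osteoblast and odontoblast factor osterix, measured 103 CPM in Memo1-mutant and 112 CPM in Control cells, and Runx2 measured 64.0 CPM in Memo1-mutant and 44.9 CPM in Control cells, a ratio of 1.43 (1.13 to 1.79). Neither was any call made among 20 tested chaperone and unfolded protein response genes, 6 calcium transport genes and 5 mechanosensory channel genes. Piezo2, a stretch-gated channel, measured 146 CPM in Memo1-mutant and 139 CPM in Control cells. The proteoglycans Lum, Dcn and Omd had ratios of 0.885, 0.938 and 1.11.

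Among further genes that ranked high, the imprinted gene Dlk1, which encodes a membrane protein of immature mesenchyme, measured 122 CPM in Memo1-mutant and 329 CPM in Control cells, a ratio of 0.371 (0.325 to 0.422). It was found in 47 Memo1-mutant and 116 Control cells, its ratio was 0.369 in cells with Bglap and 0.371 in cells without, and over the alternatives it ran between 0.218 and 0.381. The Dlk1 ratio was 1.17 over all cells outside cluster 22, but 0.528 (0.441 to 0.629) in cluster 11, 0.694 (0.581 to 0.834) in cluster 5 and 0.868 (0.537 to 1.39) in cluster 0, the clusters with the most similar profiles. The cell cycle inhibitor Cdkn1c had a ratio of 0.683 and the carbonic anhydrase Car2 of 0.649. Igfbp3, which binds insulin-like growth factors, measured 50.8 CPM in Memo1-mutant and 14.7 CPM in Control cells, a ratio of 3.46 (2.48 to 4.87). Smoc2, chosen after its values were seen, had 113 counts in 21 Memo1-mutant cells and 8 counts in 4 Control cells, a ratio of 21.7 (10.7 to 51.6). Both genes belong to the pulp and apical mesenchyme list, of which 3 of 7 tested genes were past 2-fold higher, against 0.859% of all tested genes. The third was Sfrp2, whose ratio was 6.08 outside the cluster. The other tested members did not share this rise, with ratios of 0.709 for Fgf3, 0.775 for Fgf10, 0.820 for Foxd1 and 1.32 for Crabp1. Smoc2, at 48.2 CPM in Memo1-mutant and 2.22 CPM in Control cells, passed the level limit only through the Memo1-mutant library. In the similar clusters 11, 0 and 5 the Smoc2 ratio was 3.55, 2.75 and 0.896, and the Igfbp3 ratio 3.03, 2.30 and 1.38.

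**Figure D5:**
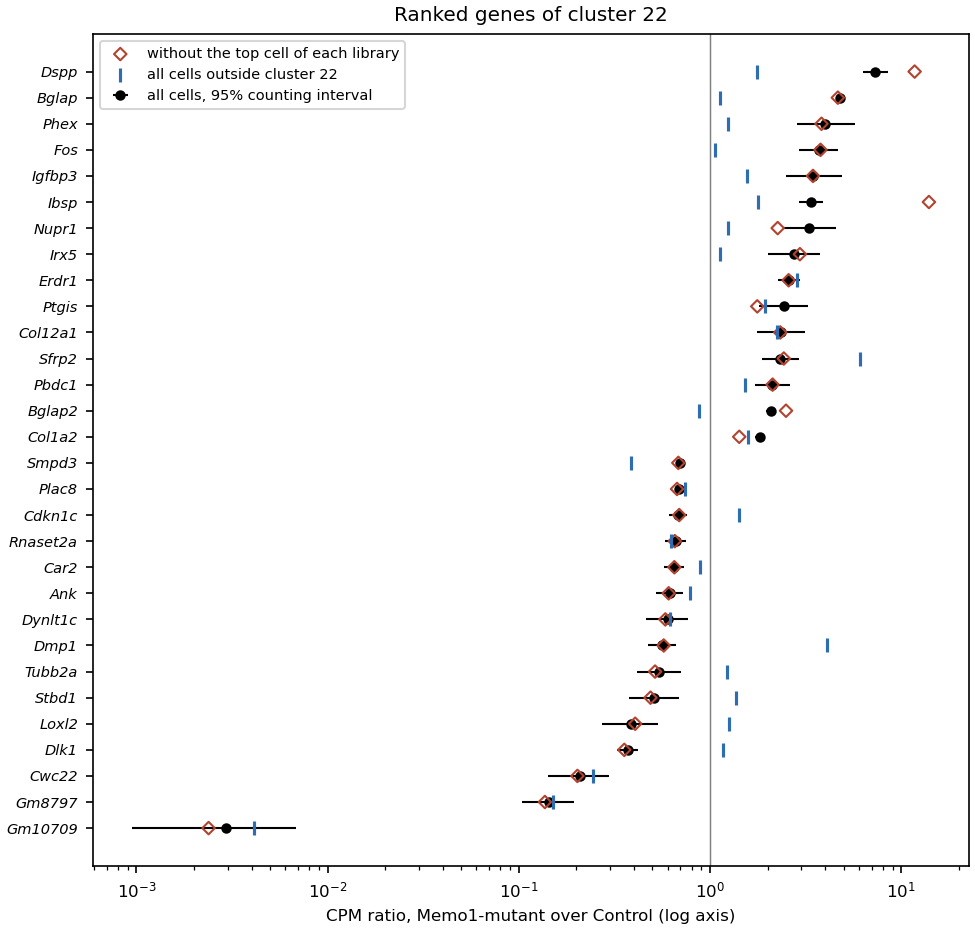
CPM ratios (Memo1-mutant over Control, logarithmic axis) of the 30 ranked genes in cluster 22, with black points and 95% counting intervals, open diamonds without the richest cell of each library and blue ticks for all cells outside the cluster. The intervals of Dspp, Bglap and Dlk1 do not reach the ticks, which pool all other clusters, while Erdr1, Gm8797, Cwc22 and Gm10709 lie close to them.

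Several ranked genes had like ratios in all cells. Gm10709 had 5 counts in Memo1-mutant and 2621 in Control cells of cluster 22, and its ratio was 0.00294 there and 0.00412 elsewhere. Gm8797 had ratios of 0.144 in the cluster and 0.151 elsewhere, Cwc22 of 0.208 and 0.246, and Erdr1 of 2.58 and 2.86. These genes are given as differences of the libraries.

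Immediate early genes, which dissociation can induce, were low in the cluster. Fos measured 108 CPM in Memo1-mutant and 29.1 CPM in Control cells, against 1221 CPM in all other cells, and Jun 31.6 CPM and 24.7 CPM against 605 CPM. The Fos ratio was 3.70 (2.93 to 4.69) in the cluster and 1.06 over all cells outside it, but 3.62 (3.24 to 4.05) in cluster 11, 1.51 (1.29 to 1.77) in cluster 0 and 0.658 (0.600 to 0.724) in cluster 5. Fos was the only gene past 2-fold of the 13 tested in that list, whose median log2 ratio was 0.40. Summed over the 16 genes, the list stood at 724 CPM in Memo1-mutant and 589 CPM in Control cells, against 7048 CPM in all other cells.

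Markers of several other cell types were present. Fibroblast genes summed to 4172 CPM in Memo1-mutant and 4624 CPM in Control cells, against 1990 CPM in other cells, mostly from Lum and Dcn, while Pi16 was at 0. Chondrocyte genes summed to 194 CPM in Memo1-mutant and 168 CPM in Control cells, against 177 CPM in other cells, nearly all from Sox9, with Col10a1 and Matn1 at 0. Osteoclast genes summed to 85.8 CPM in Memo1-mutant and 90.3 CPM in Control cells, mostly from Ctsk, with Oscar and Ocstamp at 0. They summed to more, 138 CPM, in other cells, and to 11.6 CPM in Memo1-mutant and 13.4 CPM in Control endothelium. The ameloblast genes summed to 1168 CPM in Memo1-mutant and 1326 CPM in Control cells, beside 1201 CPM in Memo1-mutant and 1685 CPM in Control endothelium, and 58140 CPM in other cells. Amelx, the enamel protein amelogenin, was found in every cell at 693 CPM in Memo1-mutant and 793 CPM in Control cells. Erythroid genes summed to 3066 CPM in Memo1-mutant and 175 CPM in Control cells, and a single Memo1-mutant cell held 4088 of 4247 Hbb-bs UMIs. An alternative left out the 1 Memo1-mutant cell over 5% haemoglobin and erythroid counts, and another the 1 Control cell over 0.5% other markers. The part of the remaining transcripts, such as Amelx, in the other results was not tested. The neutrophil marker Elane, the lymphocyte markers Cd3e and Ms4a1 and the glial marker Foxd3 were at 0 in both libraries, and endothelial genes summed to 35.8 CPM in Memo1-mutant and 51.5 CPM in Control cells. Markers of immune, osteoclast, endothelial, mural, glial and epithelial cells, with erythroid genes not counted, took over 0.5% of UMIs in 0 Memo1-mutant cells and 1 Control cell. Doublets were not called.

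The clusters with the most similar profiles were 0, 5 and 11, with Spearman correlations of 0.90, 0.89 and 0.88 over 7516 genes. Cluster 0 held shallow cells, with a median of 767 UMIs. Cluster 5, led by Lypd1, Scube1 and Twist2, held 1352 Memo1-mutant and 92 Control cells, and Smoc2 was among its leading genes. Of the 10 leading genes of cluster 5, 7 had intervals above 1 and 0 below 1 within cluster 22, with a median ratio of 1.43. Of the 10 leading genes of cluster 0, 3 were above and 1 below, with a median of 1.06, and of those of cluster 11, 2 were above and 1 below, with a median of 1.27. Over all cells outside cluster 22, which include cluster 5, ratios of the 10 cluster 5 genes ran from 1.74 (Dlx6os1) to 2.26 (Vit). No share over all genes stands beside these counts, so they describe the listed genes only. Cluster 11 was led by cell cycle genes such as Top2a and Cdk1. It was also the cluster with the next highest Smpd3, at 329 CPM, the next highest Notum, at 52.6 CPM, and the next highest Fgf3, at 64.3 CPM. Cell cycle genes were low in cluster 22 itself: Top2a measured 17.1 CPM in Memo1-mutant and 8.31 CPM in Control cells, against 803 CPM in cluster 11.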

How the data were processed

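Droplet libraries of incisor cells from 1 Memo1;K14CRE and 1 control mouse at postnatal day 20 were measured with a 3′ kit. The deposited counts are whole UMIs per gene and cell (19626 genes), made with Cell Ranger and Seurat 3 on mm10, per the submitters' processing notes, and the authors deposited the cluster number of each cell.

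Counts of cluster 22 were summed per library and divided by the total to give CPM. Ratios carry exact conditional 95% intervals of 2 Poisson counts, shares Clopper-Pearson intervals. A floor of 3 counts applies to zeros. Python 3.11.15 with scipy 1.17.1 was used. Interval coverage was tested only on simulated Poisson counts, for which these intervals are made. Such counts lack the concentration in few cells seen here, so the simulation says nothing about that. Scaling alternatives used edgeR 4.0.16 and DESeq2 1.42.0, others changed cell limits, depth, weighting and count minimum. The text names the 15 highest and 15 lowest genes of at least 50 CPM and 50 counts by the nearer interval bound (haemoglobin, ribosomal, mitochondrial and Y-linked genes, Xist and Tsix were not ranked), 15 leading genes and up to 6 members of each of 21 function and 18 marker lists. The like clusters were chosen by Spearman correlation of CPM. Likeness across cells used log2(CPM + 100). Members and lists were chosen with earlier results of these data known. Promoters are RefSeq windows, and transcript identity is from GENCODE M21. Endothelial background came from clusters 8, 9 and 15. Some listed genes are not described.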

Additional observations from a re-analysis of the deposited data

Results flagged for a closer look

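The Bglap ratio in cluster 22 was 4.80 (4.64 to 4.98), and in cluster 0, the most similar cluster, it was 0.264 (0.176 to 0.385), with 30.7 CPM in Memo1-mutant and 117 CPM in Control cells of cluster 0. It is listed because the single library of each genotype moved one way in one cluster and the opposite way in the other. The difference was not tested. In cluster 5, the next most similar, the Bglap ratio was 4.85 (1.64 to 23.7), on 221 Memo1-mutant and 3 Control counts. The cluster 0 values rest on 33 Memo1-mutant and 163 Control counts from shallow cells, and the cluster 22 ratio was 1.07 without the 5 cells that carried 1000 or more Bglap UMIs.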

How the results depend on the processing

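No paired analysis was possible because each genotype had 1 library. Over 199 gene ratios with 2160 alternative values, 1893 stayed within the counting interval, 250 moved beyond it and 17 reversed. The TMM and DESeq2 scalings shifted all log2 ratios by -0.04. Leaving out cells with 1000 or more Bglap UMIs, an alternative chosen after seeing the data, turned Dspp to 0.0246, Phex to 0.738, Bglap2 to 0.907 and Sost to 0.418, and the log2 medians of the SIBLING list to -2.01 and the vitamin K list to -0.18. It took out 4 Memo1-mutant cells and 1 Control cell, so ratios of genes concentrated in those Memo1-mutant cells had to fall. Thinning to 1000 UMIs turned Col12a1 to 0.768, Dmp1 to 1.07, Tubb2a to 1.02 and Krt14 to 1.28, and dropping the deepest 5% of cells turned Dmp1 to 5.62. In the Control library, 4 deep cells held 91.4% of the Dmp1 counts. Without cells rich in haemoglobin, and without the top cell, Hbb-bs was 0.752 and 0.795, Hba-a1 0.603 and 0.675, Hba-a2 0.729 and 0.843, and Hbb-bt 0.795 and 0.824. Except where cells were left out by construction, the cause was not tested.

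Genes past 2-fold higher numbered 144 with the mean of per-cell CPM, 1644 at 1 count or more and 13 at 50 counts and 50 CPM. Genes past 2-fold lower numbered 67 after thinning, 52 with the per-cell mean, 1636 at 1 count or more and 3 at 50 counts and 50 CPM. Function lists with a median log2 ratio beyond 0.5 numbered 2, against 1 without the 20 most abundant genes, 4 without the deepest 5% of cells and 1 at 1 count or more. Under stricter cell limits the cluster held 1.66% of Memo1-mutant and 4.11% of Control cells.

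Shares of cells with a UMI depended on depth. Without thinning, Bglap was found in 23.7% of Memo1-mutant and 30.9% of Control cells, Dspp in 5.06% of Control cells, Dmp1 in 7.19% of Memo1-mutant and 4.49% of Control cells, and Smpd3 in 91.4% of Memo1-mutant and 98.3% of Control cells. At 5000 UMIs, Control cells had Bglap in 22.5% and Dmp1 in 4.14%, and Smpd3 was in 79.2% of Memo1-mutant and 95.3% of Control cells. At 500 UMIs, Dmp1 was in 0 Memo1-mutant cells, and Smpd3 in 25.9% of Memo1-mutant and 41.0% of Control cells. The fold over other cells by the per-cell mean, in Memo1-mutant cells alone and in Control cells alone was 64.5, 409 and 96.1 for Bglap, 29.6, 36.2 and 263 for Dmp1, 12.8, 18.9 and 4.55 for Dspp, and 4.59, 4.95 and 6.05 for Col1a1.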

Other observations

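Cluster 11, the cycling cluster with the next highest levels of several leading genes of cluster 22, had lower values of many of them in the Memo1-mutant library. Of the 15 leading genes, 9 had intervals below 1 and 0 above 1 in cluster 11, against 4 below and 1 above in cluster 0 and 0 below and 3 above in cluster 5. In cluster 22 itself 9 were below 1 and 6 above. No share over all genes stands beside these counts, so they describe the 15 genes only. Smpd3 measured 144 CPM in Memo1-mutant and 462 CPM in Control cells there, a ratio of 0.311 (0.279 to 0.345). Dkk1 measured 17.9 CPM in Memo1-mutant and 82.2 CPM in Control cells, a ratio of 0.217 (0.159 to 0.291). Fgf3 had a ratio of 0.380 (0.301 to 0.477) and Notum of 0.392 (0.303 to 0.502). Collagen genes ran the other way, with a Col1a1 ratio of 2.08 (2.01 to 2.15) and a Col1a2 ratio of 4.10 (3.91 to 4.31). Cluster 11 held 276 Memo1-mutant and 469 Control cells at a median of 1661 UMIs, and the differences between the clusters were not tested.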
